A study of Mus musculus with 6 samples.

Results

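The 38 Hox genes described here were chosen by their symbols from the table of embryonic brain counts, which held 53801 genes. They filled 39 entries of the table, because Hoxd4 was listed under 2 gene identifiers. By cluster, 10 of the symbols belonged to Hoxa, 10 to Hoxb, 9 to Hoxc and 9 to Hoxd. In the GRCm38 assembly the members of the Hoxa cluster lay at chr6:52162417-52260880, those of Hoxb at chr11:96194316-96368256, those of Hoxc at chr15:102921103-103036852 and those of Hoxd at chr2:74668310-74765142.

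Hox genes code for homeodomain transcription factors that give cells of the embryo their position along the head-to-tail axis. Within a cluster the genes stand in the order in which they are used, from low-numbered paralogue groups in the hindbrain to high-numbered groups in the caudal trunk and limbs, and genes of the same number in different clusters are related copies. The forebrain and midbrain lie in front of the Hox territory, so that in a whole brain Hox RNA comes mainly from the hindbrain, where group 2 to 4 genes mark the rhombomeres and their later neurons. Silent Hox clusters are covered with trimethylated lysine 27 of histone H3, the mark set by Polycomb repressive complex 2. BAHD1, the protein absent from the mutants, is a scaffold of repressive chromatin with a domain that can bind this mark.

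Polyadenylated RNA came from the whole brain of C57BL/6 embryos taken at stage E16.5, from 3 Bahd1-KO embryos (genotype Bahd1-/-) and 3 Bahd1-WT embryos (Bahd1+/+). The Bahd1-KO embryos carried a constitutive null allele of Bahd1. The samples were labelled as biological replicates. The comparison asked whether loss of BAHD1 changed gene expression before birth.

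Bahd1 itself fitted the labels, with 2, 10 and 6 counts in Bahd1-KO replicates 1, 2 and 3 and with 1971, 3102 and 3470 counts in Bahd1-WT replicates 1, 2 and 3. The libraries held 61.7 to 91.8 times 1e6 counts. A level is given as CPM, counts scaled to a library of 1e6 counts, and 3 counts in a library, the smallest number treated here as a level, stood at 0.0327 to 0.0486 CPM. Bahd1-KO replicate 3 stood apart. In it, protein-coding genes took 53.5% of the counts, against 97.8 to 98.4% in the other 5 libraries.

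Marker genes of brain regions and of other tissues also differed between embryos and stand here before the Hox values. In Bahd1-KO replicate 3 the 13 forebrain markers summed to 82.6 CPM, against 1410 to 2050 CPM in the other embryos, and the 12 markers of midbrain and cerebellum to 49.9 against 384 to 564 CPM. The 12 lung markers summed to 1520 CPM in the same embryo, against 18.0 to 33.4 CPM, with 44670 counts of Sftpc, a surfactant protein gene, against 0 to 225. The 12 heart markers summed to 129 CPM against 1.85 to 3.85 CPM, and the 12 skeletal muscle markers to 97.5 against 8.93 to 22.9 CPM. Brain markers were thus low and lung markers high in Bahd1-KO replicate 3, against its label of whole brain. In Bahd1-KO replicate 1, 17 of the 20 markers of hindbrain and spinal cord neurons were lower than in each of the 4 embryos other than replicate 3. Atoh1, a gene of the rhombic lip at the dorsal edge of the hindbrain, had 0, 146 and 1 counts in Bahd1-KO replicates 1, 2 and 3, against 120, 76 and 82 in Bahd1-WT. Not all of the list was low in Bahd1-KO replicate 3, since 3 of the 20 markers were highest there. These were Slc6a5 at 10.8 CPM against 0.324 to 6.78 in the other embryos, Glra1 at 6.56 against 0.146 to 0.811 and Pax8 at 1.81 against 0.194 to 1.66. The part of these differences in the Hox results was not tested. In whole tissue, fewer cells of a type and less RNA per cell cannot be told apart.

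Hox RNA was scarce in the brains of Bahd1-WT embryos and ranged widely in those of Bahd1-KO embryos. All Hox genes together had 260, 45 and 189 counts in Bahd1-WT replicates 1, 2 and 3, which was 2.83, 0.552 and 2.07 CPM. They had 22, 911 and 6334 counts in Bahd1-KO replicates 1, 2 and 3, which was 0.356, 11.9 and 80.2 CPM. The 3 Bahd1-WT embryos thus fell between Bahd1-KO replicate 1, the lowest of all 6, and the other Bahd1-KO embryos, and the genotypes overlapped. A count of at least 1 was found for 21, 12 and 20 entries in the Bahd1-WT embryos and for 6, 22 and 25 entries in the Bahd1-KO embryos. Over all 6 embryos, 6 entries had no count, 12 had a sum of 1 to 9 counts, and 21 reached the sum of 10 counts needed for a test.

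**Figure D1:**
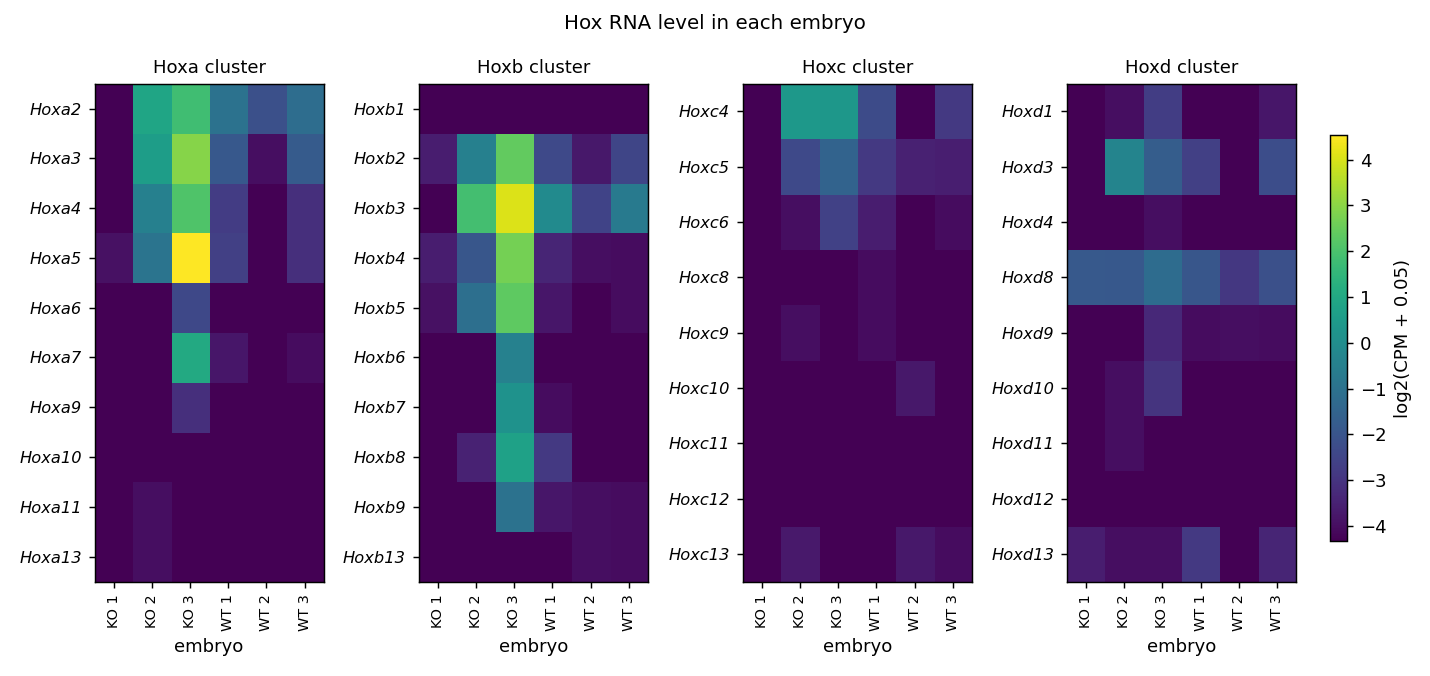
Level of each of the 38 Hox genes in each embryo, as log2 of CPM plus 0.05, with 1 panel per cluster, genes in rows by paralogue number, embryos in columns (KO, Bahd1-KO; WT, Bahd1-WT; the number is the replicate) and brighter colour for a higher level. The summed counts of the columns run from 22 in KO 1 to 6334 in KO 3, and Hoxd8 is the row with 7 counts or more in all 6 embryos.

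The filter itself chose among the members. Hoxa6, Hoxa7, Hoxb6, Hoxb7, Hoxb9, Hoxc6 and Hoxd1 reached 10 counts only with Bahd1-KO replicate 3, so that their being highest there was fixed by the filter, and Hoxb4, Hoxb5 and Hoxb8 also did not reach 10 counts in Bahd1-WT. The 11 others did so within Bahd1-WT. Of the 21 tested entries, 18 had their highest level in Bahd1-KO replicate 3 (25.9% of all genes tested), which for the reason given is a description. Of the 11 that reached 10 counts within Bahd1-WT, 8 were highest there, against 21.7% of the 21824 genes that did so. In CPM, Bahd1-KO replicate 2 was highest for Hoxc4 and Hoxd3, and Bahd1-WT replicate 1 for Hoxd13. For Hoxc4 the levels in Bahd1-KO replicates 2 and 3 were 1.26 and 1.25 CPM, so which embryo led depended on the scale. In Bahd1-KO replicate 1, 15 of the 21 had no count and 15 were at or below the lowest Bahd1-WT embryo, against 34.9% of all genes tested. Only 5 of the 21 lay strictly below all Bahd1-WT embryos, and the rest of the 15 tied with a Bahd1-WT embryo that also had no count. The share of 34.9% includes ties, and a share without them was not counted. Bahd1-KO replicate 2 lay above all Bahd1-WT embryos for 12 of the 21 (19.6% of all genes tested) and replicate 3 for 20 of the 21 (29% of all genes tested).

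Levels per length of exon, as RPKM (CPM divided by the exon length in kilobases), gave the order of the genes within Bahd1-WT brains. Hoxa2 led with 0.192 ± 0.0846 RPKM (SD, n = 3), followed by Hoxb3 with 0.123 ± 0.0909 RPKM and Hoxd8 with 0.0569 ± 0.0229 RPKM. Hoxa4, Hoxc4, Hoxa5, Hoxb2, Hoxa3, Hoxd3 and Hoxd13 followed at mean levels of 0.0343 down to 0.0176 RPKM. In each of the 9 pairs of neighbours in this order of 10 genes, the means lay closer than the larger of the pair's SDs. In Bahd1-KO replicate 3 the highest level per length was 12.3 RPKM, of Hoxa5, and Hoxa2 stood at 1.98 RPKM.

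Hoxa2, the Hox gene with the most anterior border in the hindbrain, patterns the second branchial arch and the rhombomeres. It had 42, 14 and 36 counts in the Bahd1-WT embryos and 0, 138 and 277 counts in Bahd1-KO replicates 1, 2 and 3. Replicates 2 and 3 of Bahd1-KO were above all Bahd1-WT embryos and replicate 1 was below them. The means were 0.341 ± 0.150 CPM in Bahd1-WT and 1.77 ± 1.75 CPM in Bahd1-KO (SD, n = 3 each), and the log2 fold change was 2.82 with an SE of 1.54 and an adjusted p of 0.696 in the quasi-likelihood test of edgeR. Hoxb2, which acts in the facial motor neurons of the hindbrain, had 13, 2 and 12 counts against 2, 51 and 414. Its log2 fold change was 4.87 with an SE of 1.74, and Bahd1-KO replicate 1 lay within the range of Bahd1-WT, unlike for Hoxa2.

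The 250 bases before the annotated start of 5 members are shown to let their promoters be compared, since their counts were distributed differently over the embryos, from Hoxa5, almost all in Bahd1-KO replicate 3, to Hoxd8, present in all 6. The sequences and starts are those of RefSeq on GRCm38.p6, 5′ to 3′ on the strand of the gene. Capitals mark matches on either strand to CCAAT, to TGATNNAT (a form of the joint binding site of Hox and Pbx proteins) and to AGGTCA (the half-site of retinoic acid receptors). No marked matches overlapped.
Hoxa2 promoter, chr6:52164832-52165081, minus strand: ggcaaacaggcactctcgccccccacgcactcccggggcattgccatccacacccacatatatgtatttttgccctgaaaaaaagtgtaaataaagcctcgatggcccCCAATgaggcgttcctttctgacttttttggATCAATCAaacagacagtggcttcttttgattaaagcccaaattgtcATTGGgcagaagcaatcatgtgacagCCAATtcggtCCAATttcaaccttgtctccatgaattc
Hoxa5 promoter, chr6:52204588-52204837, minus strand: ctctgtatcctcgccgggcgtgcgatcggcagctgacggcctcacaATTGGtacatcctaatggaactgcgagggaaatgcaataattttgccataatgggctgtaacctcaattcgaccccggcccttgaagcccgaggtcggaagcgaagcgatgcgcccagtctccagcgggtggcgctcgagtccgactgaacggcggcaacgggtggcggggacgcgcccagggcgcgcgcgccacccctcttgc
Hoxc4 promoter, chr15:103034145-103034394, plus strand: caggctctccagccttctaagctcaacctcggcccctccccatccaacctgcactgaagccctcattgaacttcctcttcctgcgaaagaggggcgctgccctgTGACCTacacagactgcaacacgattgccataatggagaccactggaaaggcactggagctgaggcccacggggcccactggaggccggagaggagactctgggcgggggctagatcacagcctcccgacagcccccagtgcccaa
Hoxd3 promoter, chr2:74711743-74711992, plus strand: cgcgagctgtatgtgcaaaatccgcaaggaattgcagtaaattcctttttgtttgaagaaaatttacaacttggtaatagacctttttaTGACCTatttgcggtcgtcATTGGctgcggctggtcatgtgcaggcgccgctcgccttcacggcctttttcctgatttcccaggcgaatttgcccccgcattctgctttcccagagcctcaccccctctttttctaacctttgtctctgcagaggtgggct
Hoxd8 promoter, chr2:74704365-74704614, plus strand: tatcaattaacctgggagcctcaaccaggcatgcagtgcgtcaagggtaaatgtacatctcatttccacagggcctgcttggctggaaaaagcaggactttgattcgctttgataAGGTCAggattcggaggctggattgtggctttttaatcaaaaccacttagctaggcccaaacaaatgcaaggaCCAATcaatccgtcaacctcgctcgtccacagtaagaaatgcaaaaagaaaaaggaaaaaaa

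RefSeq promoters were found for 22 of the 38 symbols, in 24 entries. CCAAT was present in 14 of the 24 (58.3%), against 33.8% of all 32851 promoters in the reference, and Hoxa2 held 4 copies. TGATNNAT was in 4 of the 24 (16.7%) against 7.68%, and of the promoters printed above it was in that of Hoxa2. AGGTCA was in 6 of the 24 (25.0%) against 14%, among them Hoxc4, Hoxd3 and Hoxd8. TATAAA, the TATA box, was in 4 of the 24 (16.7%) against 12.4%, and TTTATNG, a form of the site of caudal-type (Cdx) proteins, in 2 (8.33%) against 9.81%. None of the 5 printed promoters held either. The Hox promoters held a median of 12.5 CpG dinucleotides in 250 bases, against 6 over all promoters, and ranged from 2 to 35. Hoxa5 held 28 and Hoxd8 held 6. These matches describe letters and not binding.

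The group 3 genes carried the largest share of Hox counts of any paralogue group in Bahd1-WT replicates 1 and 3, at 43.1 and 46.6%. Hoxb3, expressed in the caudal hindbrain, had 82, 10 and 51 counts in the Bahd1-WT embryos and 0, 278 and 1302 in Bahd1-KO replicates 1, 2 and 3. The embryo without a count and those with the most counts were all Bahd1-KO. Means were 0.525 ± 0.387 CPM in Bahd1-WT and 6.71 ± 8.67 CPM in Bahd1-KO (SD, n = 3 each), and the log2 fold change of 4.21 had an SE of 1.93. Hoxa3, a gene of the caudal hindbrain and of the pharyngeal arches that form thymus and parathyroid, had 20, 1 and 22 counts against 0, 113 and 599. Its log2 fold change was 4.80 with an SE of 2.0.

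Hoxd3 departed from this order among the Bahd1-KO embryos. It had 10, 0 and 15 counts in Bahd1-WT and 0, 57 and 20 counts in Bahd1-KO replicates 1, 2 and 3. Its CPM in replicate 2 was 294% of that in replicate 3. Its log2 fold change was 2.02 (SE 1.54). Its counts may be incomplete, since 62.3% of its exon length in GENCODE M21 is also exon of another gene model on the same strand. Reads in such stretches are not assigned under the stated counting parameters. How many reads were lost was not tested. Hoxd4, one of the overlapping genes, had a single count in 1 of its 2 entries, in Bahd1-KO replicate 3, and none in the other.

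Group 4 genes have their front border in the most caudal hindbrain. Hoxa4 had 9, 0 and 6 counts in the Bahd1-WT embryos and 0, 52 and 337 in Bahd1-KO replicates 1, 2 and 3, with a log2 fold change of 5.42 (SE 2.07). Hoxc4 had 14, 0 and 8 counts against 0, 96 and 99. In CPM its levels in Bahd1-KO replicates 2 and 3 were nearly equal, at 1.26 and 1.25. On this scale it was the closest match among the members with at least 10 counts in replicate 3. CPM does not correct for the low protein-coding share of replicate 3. With the TMM factors of 1.1 and 0.684 its level would be higher in replicate 3 than in replicate 2. Its log2 fold change was 3.68 (SE 1.72). Hoxb4 had 4, 1 and 1 counts against 2, 16 and 501, so its level in replicate 2 was 3.30% of that in replicate 3. The 3 tested genes of group 4 thus shared low levels in Bahd1-WT and in Bahd1-KO replicate 1, and differed in how much of their RNA was in replicate 2.

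Group 5 contained the Hox gene with the highest count of all. Hoxa5, known for its part in the development of the lung and of the phrenic motor neurons, had 10, 0 and 6 counts in Bahd1-WT brains and, in the order of replicates 1, 2 and 3, had 1, 37 and 1825 counts in Bahd1-KO brains. Replicate 1 of Bahd1-KO lay within the range of Bahd1-WT. Its means were 0.0582 ± 0.0549 CPM in Bahd1-WT and 7.87 ± 13.2 CPM in Bahd1-KO (SD, n = 3 each), so that the SD in Bahd1-KO was larger than the mean, and the log2 fold change of 7.65 had an SE of 2.59. Hoxb5, which is expressed in the mesenchyme of the lung as well as in the caudal hindbrain, had 2, 0 and 1 counts in Bahd1-WT and 1, 32 and 394 in Bahd1-KO. The groups overlapped at 1 count of Bahd1-KO replicate 1. Hoxc5 had 8, 3 and 3 counts against 0, 11 and 24.

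Hoxb5 was the only Hox gene called by DESeq2 with all embryos. With 2, 0 and 1 counts in Bahd1-WT, it reached the filter only through Bahd1-KO libraries. A higher level in Bahd1-KO was thus largely fixed for it, and the call is a description. Its log2 fold change there was 7.99 with an SE of 1.78 and an adjusted p of 0.0240, beside 5 of 23981 genes (0.0208%) called higher in Bahd1-KO by that tool. In edgeR its log2 fold change was 7.74 (SE 2.21) with an adjusted p of 0.696. Without Bahd1-KO replicate 3 the log2 fold change was 4.11 (SE 1.25) in edgeR, the adjusted p was 0.981, and DESeq2 called no Hox gene. DESeq2 gave no p for 5 members, Hoxa5, Hoxa7, Hoxb4, Hoxb7 and Hoxb8.

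Genes of groups 6 to 9, which pattern the trunk and the thoracic spinal cord, had few counts outside Bahd1-KO replicate 3, apart from Hoxd8. Hoxa7 had 162 counts in that embryo, against 0 in the other Bahd1-KO embryos and 2, 0 and 1 in Bahd1-WT. Hoxb6, Hoxb7, Hoxb8 and Hoxb9 had 54, 86, 128 and 36 counts there, and no more than 8 in any other embryo. Hoxb6 had no count in the other 5, so that its mean level in Bahd1-KO was at least 6.68-fold higher than that allowed by 3 counts in each Bahd1-WT library. Hoxa6, with 11 counts in replicate 3 and none elsewhere, was at least 1.36-fold higher on the same basis. Hoxc6, with 9 counts in replicate 3 and 3, 0 and 1 in Bahd1-WT, had a log2 fold change of 1.90 (SE 1.55).

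Hoxd8 differed from the other members in its spread over the embryos. It had 19, 7 and 16 counts in the Bahd1-WT embryos and 14, 17 and 31 counts in Bahd1-KO replicates 1, 2 and 3. As levels these were 0.207, 0.0858 and 0.175 CPM against 0.227, 0.222 and 0.393 CPM. It was the 1 of 21 tested members whose groups did not overlap, with all Bahd1-KO embryos higher, a pattern held by 3.97% of all genes tested. The gap between the lowest Bahd1-KO embryo and the highest Bahd1-WT embryo was 0.222 against 0.207 CPM, at 17 and 19 counts. Its means were 0.156 ± 0.0628 CPM and 0.281 ± 0.0971 CPM (SD, n = 3 each), and its log2 fold change of 1.16 (SE 0.661) had an adjusted p of 0.696. Without Bahd1-KO replicate 3 the log2 fold change was 0.49 (SE 0.480). In Bahd1-KO replicate 1, Hoxd8 gave 14 of the 22 Hox counts, and the other 8 were spread over Hoxa5, Hoxb2, Hoxb4, Hoxb5 and Hoxd13.

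The high-numbered genes of groups 9 to 13, which act in the lumbar and sacral trunk, the limbs and the urogenital tract, gave 12, 7 and 8 counts in the Bahd1-WT embryos and 2, 8 and 52 in Bahd1-KO replicates 1, 2 and 3. Of the 52, Hoxb9 held 36. Hoxd13, which patterns the digits and the genital tubercle, had 8, 0 and 4 counts against 2, 1 and 1. It was the 1 tested member with a negative log2 fold change, -1.0 with an SE of 1.18. Hoxa10, Hoxb1, Hoxc11, Hoxc12 and Hoxd12 had no count in any embryo, and neither had 1 entry of Hoxd4. At these depths, counts of 0 allow a level of up to 0.0486 CPM in the shallowest library.

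The make-up of Hox RNA by paralogue group differed between embryos as well as its amount. Groups 1 to 4 held 74.6% (95% Wilson interval 69.0 to 79.5%), 62.2% (47.6 to 74.9%) and 81.0% (74.8 to 85.9%) of the Hox counts in Bahd1-WT replicates 1, 2 and 3. In Bahd1-KO replicate 2 they held 88.0% (85.8 to 90%), in replicate 3 they held 56.2% (54.9 to 57.4%), and in replicate 1, with 22 counts, 18.2% (7.31 to 38.5%). Group 5 held 35.4% (34.2 to 36.6%) of the Hox counts in Bahd1-KO replicate 3 and 5.29 to 9.09% in the other embryos. The intervals cover counting error only. Groups 1 to 4 thus held most Hox counts in all embryos but Bahd1-KO replicate 1, whose counts were mostly of Hoxd8. In Bahd1-KO replicate 3 their share of 56.2% lay within the interval of Bahd1-WT replicate 2. The share of group 5 was larger in replicate 3 of Bahd1-KO than in the other embryos.

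**Figure D2:**
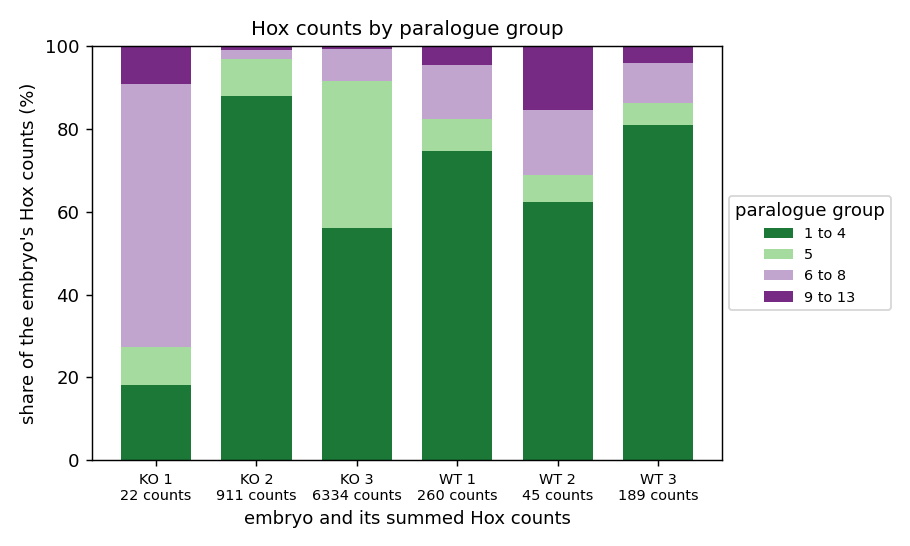
Share of each embryo's Hox counts, in percent, held by paralogue groups 1 to 4, 5, 6 to 8 and 9 to 13, with 1 bar per embryo and its summed Hox counts below it. The darkest green part, groups 1 to 4, is 88.0% of the bar of KO 2 and 56.2% of that of KO 3, and the bar of KO 1 rests on 22 counts.

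The clusters were also used unequally. In Bahd1-KO replicate 3, Hoxa held 50.8% (95% Wilson interval 49.5 to 52.0%) and Hoxb 46.0% (44.8 to 47.3%) of the Hox counts, and Hoxc and Hoxd held 2.08% (1.76 to 2.47%) and 1.12% (0.890 to 1.41%). In Bahd1-KO replicate 2 the shares of Hoxc and Hoxd were 12.2% (10.2 to 14.5%) and 8.56% (6.91 to 10.6%). In the Bahd1-WT embryos Hoxc held 6.88 to 15.6% and Hoxd 14.6 to 20.1%. Hoxc and Hoxd had 132 and 71 counts in replicate 3 and 111 and 78 counts in replicate 2, so the difference in total between these embryos was carried by Hoxa and Hoxb.

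For the comparison of the genotypes, the 21 testable entries were fitted together with all 24739 genes that had a sum of 10 counts or more. In edgeR's quasi-likelihood test 1 gene, Bahd1, passed a Benjamini-Hochberg adjusted p of 0.05 (0.00404% of the genes tested), and it was lower in Bahd1-KO. This call was lost in 5 of the 6 fits that left out 1 embryo. No Hox gene passed, with adjusted p-values from 0.696 to 0.774. Positive log2 fold changes were found for 20 of the 21 members (53.8% of all genes tested), and 8 of the 21 had an unadjusted p under 0.05 with a higher level in Bahd1-KO (4.51% of all genes tested). These counts include the 10 members that reached the filter only through Bahd1-KO libraries, for which a positive value was largely fixed. Of the 11 that reached it within Bahd1-WT, 10 were positive, against 49.6% of all such genes, and 4 had an unadjusted p under 0.05 with a higher level, against 2.77%. Their median log2 fold change was 3.68, beside -0.01 over all such genes, and it was 1.79 without Bahd1-KO replicate 3. The median log2 fold change of the 21 was 4.76, beside 0.06 over all genes, and it was 3.81 when Hoxa6 and Hoxb6, without a count in Bahd1-WT, were put at their lower bounds. By cluster the medians were 5.42 for the 6 tested Hoxa genes, 5.79 for the 8 Hoxb genes, 1.91 for the 3 Hoxc genes and 1.59 for the 4 Hoxd genes. Genes of the same cluster share embryos and are not independent of each other.

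The values depended on single embryos. Without Bahd1-KO replicate 3, 14 members could be tested, 12 had positive log2 fold changes (49.2% of all genes tested), and the median was 1.90. Of these 14, none passed the adjusted threshold and 2 had an unadjusted p under 0.05 with a higher level in Bahd1-KO (1.09% of all genes tested). These 2, Hoxb4 and Hoxb5, reached 10 counts in that fit only through Bahd1-KO replicate 2. A higher level in Bahd1-KO was thus largely fixed for them by the filter, and their number is a description. With both Bahd1-KO replicates 2 and 3 left out, so that replicate 1 stood alone against the Bahd1-WT embryos, 11 members could be fitted, and 1 of them, Hoxd8, had a positive log2 fold change. The other 10 were negative, but 7 of the 11 had no count in replicate 1, so that their difference is known only as a bound. With 3 counts taken as the limit of that library, Hoxb3 was at least 10.8-fold lower than the Bahd1-WT mean and Hoxa2 at least 7.02-fold lower. The bound was 1.08-fold for Hoxc5 and 1.12-fold for Hoxa4. With these 7 at their bounds the median was -0.91. No median or sign from this single embryo has a replicate check.

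**Figure D3:**
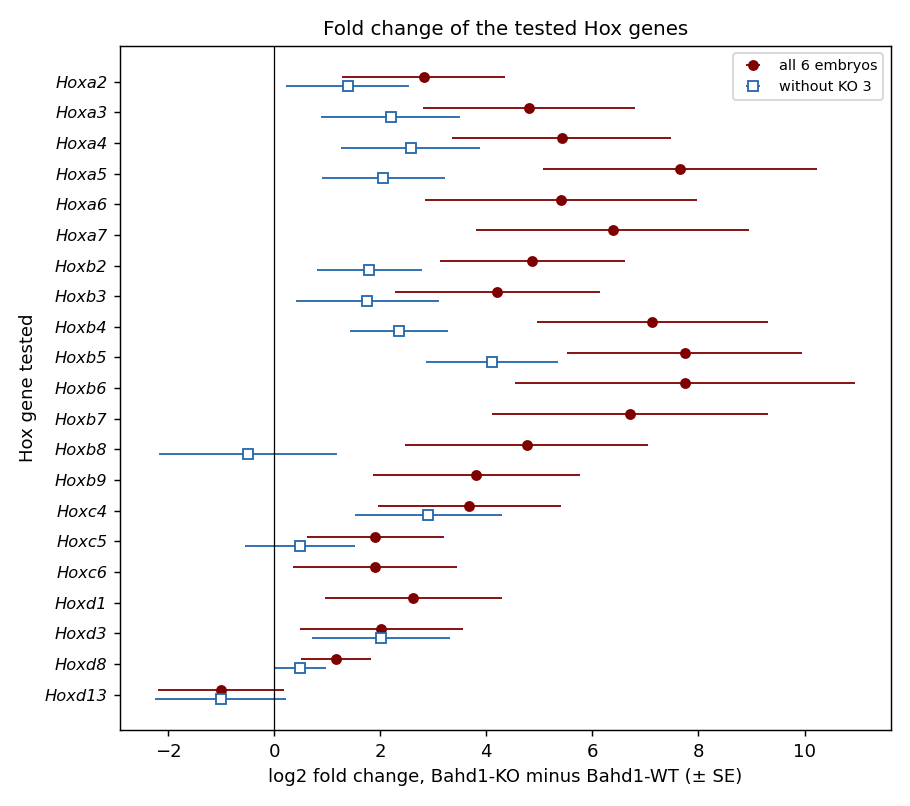
Log2 fold change of the 21 tested Hox genes, Bahd1-KO minus Bahd1-WT, with bars of 1 SE, from all 6 embryos (filled circles) and without Bahd1-KO replicate 3 (open squares, 14 genes). The circles lie from -1.0 for Hoxd13 to 7.75 for Hoxb6, and the open squares of 12 genes stay above 0 with a median over the 14 of 1.90.

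Some markers followed the Hox genes in part from embryo to embryo. The 20 markers of hindbrain and spinal cord neurons summed to 273, 352 and 63.2 CPM in Bahd1-KO replicates 1, 2 and 3, and to 373, 267 and 298 CPM in Bahd1-WT. Most of each sum was a single gene, Slc17a6, with 190, 203 and 34.5 CPM in Bahd1-KO and 245, 161 and 163 CPM in Bahd1-WT. The order of the sums thus rests largely on it. Among the 5 embryos other than Bahd1-KO replicate 3, the lowest pair was the same as for the summed Hox level, replicate 1 of Bahd1-KO and replicate 2 of Bahd1-WT, and the highest sum was that of Bahd1-WT replicate 1. Within that pair the order was the reverse of that of the Hox sums. Yet 17 of the 20 single markers were lowest in Bahd1-KO replicate 1 among these 5 embryos. The same pair was lowest for the markers of midbrain and cerebellum, at 384 and 422 CPM, so this was not particular to the hindbrain list. By single genes, 12 of the 20 markers were highest in Bahd1-KO replicate 2 among these 5 embryos, as was the summed Hox level. The same held for 8 of 12 lung, 8 of 11 blood and 6 of 12 skin markers. It held for 4 of 12 markers of midbrain and cerebellum and for 0 of 13 forebrain markers. This too was not particular to the hindbrain list, and the share over all genes was not counted. In Bahd1-KO replicate 3, where the Hox sum was highest, the hindbrain list had its lowest sum, though 3 of its 20 genes were highest there. Lung markers stood far above the other embryos. In Bahd1-KO replicate 2, 10 of the 12 lung markers stood at 0.101 to 3.93% of their level in replicate 3, Nkx2-1 at 14.1% and Scgb1a1 at 150%. The 18 Hox genes with at least 10 counts in replicate 3 ran from 0 to 294%. All of these percentages are of CPM, which does not correct for the low protein-coding share of replicate 3. Hoxd3 stood at 294%, Hoxc4 at 100%, Hoxd8 at 56.6%, Hoxa2 at 51.4% and Hoxc5 at 47.3%. Hoxb3, Hoxa3, Hoxa4, Hoxb2 and Hoxb5 followed at 22.0, 19.5, 15.9, 12.7 and 8.39%. Hoxb4, Hoxb8 and Hoxa5 stood at 3.30, 2.42 and 2.09%, and Hoxa6, Hoxa7, Hoxb6, Hoxb7 and Hoxb9 had no count in replicate 2. What part cells of the hindbrain, of the lung or of other tissues had in the Hox counts was not tested.

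**Figure D4:**
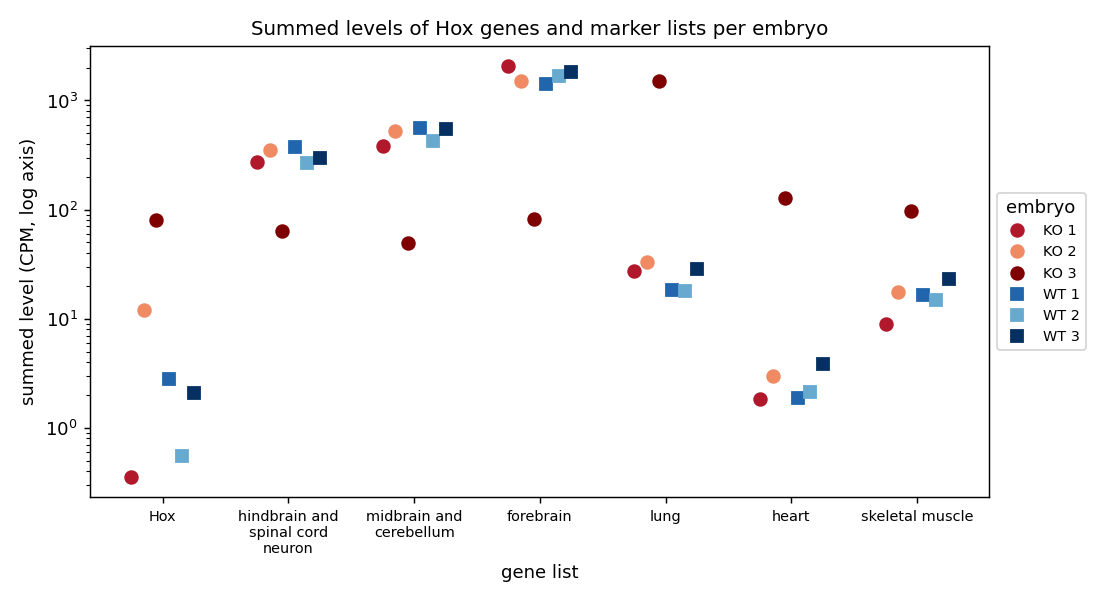
Summed level in CPM (log axis) of all Hox genes and of 6 lists of marker genes, with 1 point per embryo (circles, Bahd1-KO; squares, Bahd1-WT). For Hox genes the points run from 0.356 CPM in KO 1 to 80.2 CPM in KO 3, and KO 3 is the lowest point for the 3 lists of brain regions and the highest for lung, heart and skeletal muscle.

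Of 19 matched non-coding genes of the clusters, 9 had no count in any embryo, among them Hotair, Hottip and 6 microRNA genes. Another 9 were tested, and 8 of them had their highest level in Bahd1-KO replicate 3 (25.9% of all genes tested). These 8 had positive log2 fold changes (53.8% of all genes tested) and Halr1 a negative one, and none passed the test. Without that embryo 3 of the 9 reached the sum of 10 counts. For the rest, being highest there and positive was largely fixed by the filter, so these counts are a description. Hoxb3os, transcribed opposite to Hoxb3, had 4, 0 and 12 counts in Bahd1-WT and 0, 24 and 168 in Bahd1-KO replicates 1, 2 and 3, with a log2 fold change of 4.34 (SE 1.94). Halr1, a long non-coding RNA between Skap2 and the Hoxa cluster, had 38, 22 and 35 against 28, 14 and 12 counts, with a log2 fold change of -0.29 (SE 0.551).

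No cofactor or regulator of Hox genes on the lists was called, where 1 of all 24739 genes tested was. Log2 fold changes were positive for 53.8% of all genes tested. Of the 11 TALE genes, which code for the Pbx, Meis, Pknox and Tgif homeodomain partners, 2 had positive and 9 negative log2 fold changes, with -0.36 for Meis2. In the retinoic acid pathway, which sets the front borders of Hox expression in the hindbrain, 7 of 17 tested genes were positive and 10 negative, with -0.64 for Cyp26b1, a retinoic acid degrading enzyme. Of the 23 Polycomb and trithorax genes, 7 were positive and 16 negative, with -0.37 for Kmt2a, a methyltransferase that keeps Hox genes active, and a value that rounded to 0 for Rnf2, the ubiquitin ligase of Polycomb repressive complex 1. Among 9 tested axial patterning regulators, 4 were positive and 5 negative, with -0.31 for Gdf11. Without Bahd1-KO replicate 3, positive values were found for 2 of 11 TALE, 2 of 17 retinoic acid, 8 of 23 Polycomb and trithorax and 4 of 9 axial genes. The share over all genes was then 49.2%. Cdx1, Cdx2 and Cdx4, the caudal-type activators of trunk Hox genes, had no more than 3 counts in any embryo.

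The remaining lists gave no called gene either, and the share of positive values to set beside theirs is again 53.8% of all genes tested. Of 12 tested homeobox genes outside the clusters, the Evx genes included, 2 had positive and 10 negative log2 fold changes (Dlx1 -0.47, Dlx2 -0.78). Of the region lists, 6 of 20 genes were positive for hindbrain and spinal cord neurons (Slc17a6 -0.36, Isl1 -0.34), none of 13 for forebrain (Neurod6 -0.26, Tbr1 -0.47) and none of 12 for midbrain and cerebellum (Zic1 -0.45, Tfap2b -0.84). Of the tissue lists, 12 of 12 were positive for lung (Sftpc 11.99, Lamp3 11.25), 10 of 10 for heart (Actc1 5.55, Myh6 5.96), 10 of 11 for skeletal muscle (Ttn 3.42, Myh8 2.20) and 11 of 12 for meninges and connective tissue (Col3a1 1.75, Col1a2 1.20). Positive values were found for 9 of 11 cartilage and bone genes (Sox9 -0.16, Col2a1 -0.34), 9 of 12 skin genes (Dsp 3.07, Perp 0.90), 8 of 11 blood genes (Hbb-bs 0.13, Hbb-bt 0.29), 4 of 10 kidney and urogenital genes (Lhx1 -0.61, Eya1 0.12) and 3 of 8 gut and liver genes (Ttr -0.44, Sox17 1.37). The 2 values in each bracket are log2 fold changes of the list members with the highest counts. Without Bahd1-KO replicate 3, the median log2 fold change of the lung list was 2.26 against 7.69 with it, that of the heart list -0.17 against 5.18 and that of the hindbrain list -0.13 against -0.45. The skeletal muscle list turned from 10 of 11 positive (median 2.11) to 0 of 11 (median -0.77), and the forebrain list from 0 of 13 to 6 of 13 positive.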

How the data were processed

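Polyadenylated RNA was sequenced from strand-specific libraries. Per the labels and methods, the authors trimmed reads with cutadapt 1.11, aligned them to GRCm38 with STAR 2.5.0a (the methods also name TopHat) and counted them over exons of Ensembl genes with featureCounts 1.4.6-p3. The deposited values are these raw counts per gene. Reads in exons of more than 1 gene on the same strand are not assigned under the stated parameters, and paralogues could lose reads that align to several places. Groups and replicate numbers came from sample titles.

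Genes whose counts summed to 10 or more were tested with edgeR 4.0.16 (R 4.3.3): quasi-likelihood test, TMM factors, genotype as the single term, two-sided, Benjamini-Hochberg adjustment over all genes, threshold 0.05. The SE of a log2 fold change is its size divided by the square root of the F statistic. DESeq2 1.42.0, limma 3.58.1 (voom), other filters and scalings, the replicate number as a block and each embryo left out were alternatives. Exon lengths and positions came from GENCODE M21, which matched 38 of the 39 entries. P-values set the difference between genotypes against the spread between 3 embryos per genotype. The estimate of that spread in edgeR draws in part on all genes.

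The members and the 18 gene lists were chosen with earlier results of these data known. Full values were given for members called by edgeR or DESeq2, the 10 highest per length in Bahd1-WT and those whose groups do not overlap. Values of other members were given after they had been seen. Not every gene of the 4 clusters or of the lists is reported here.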

Additional observations from a re-analysis of the deposited data

How the results depend on the processing

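The count of genes called was 1 in edgeR and 8 with DESeq2, 6 with the likelihood ratio test, 6 with voom and embryo weights, and 0 to 4 with each embryo left out. It was 11 with DESeq2 and 16 with the replicate block when Bahd1-KO replicate 3 was left out. Of the 2 settings chosen after seeing the data, leaving out both Bahd1-KO replicates 2 and 3 gave 25 calls, and DESeq2 without Bahd1-KO replicate 2 gave 1545. The cause was not tested. Hox genes called were 0 in edgeR with each embryo left out and 1 with DESeq2. DESeq2 without Bahd1-KO replicate 2 called 4 of the 21 members (Hoxb2, Hoxb4, Hoxb5, Hoxb6), beside 1545 of all 24149 genes. In that fit Hoxb4, Hoxb5 and Hoxb6 reached the filter on summed counts only through Bahd1-KO replicate 3. A higher level in Bahd1-KO was thus largely fixed for them, and their calls are a description. Hoxb2 reached the filter within Bahd1-WT.

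The median log2 fold change of tested Hox genes, 4.76, was 0.86 with voom, 1.90 to 5.35 with each embryo left out, the lowest without Bahd1-KO replicate 3. It was 2.79 over all Hox entries with no filter on counts and 3.77 with edgeR's own filter. Without that embryo it was 1.88 with DESeq2 and 1.63 with the replicate block. It was -5.24 as fitted without Bahd1-KO replicates 2 and 3, and -0.91 with the 7 members that had no count in the remaining embryo at their bounds.

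Signs turned with voom for Hoxd13 (0.93), Hoxa2 (-1.33), Hoxb9 (-0.97), Hoxc5 (-0.50) and Hoxb3 (-0.79). Hoxb8 ranged from -0.49 to 8.94 with each embryo left out, negative without Bahd1-KO replicate 3, and there was -0.64 with DESeq2 and -0.83 with the replicate block. Without Bahd1-KO replicates 2 and 3, the fitted values, which for all of these but Hoxa5 and Hoxb2 rest on 0 counts in the remaining embryo and measure no size, were -5.24 for Hoxa4, -7.82 for Hoxa2, -5.15 for Hoxc5, -1.81 for Hoxa5, -8.45 for Hoxb3, -5.78 for Hoxc4, -1.61 for Hoxb2, -5.95 for Hoxd3 and -6.72 for Hoxa3. The other scalings left 20 of 21 members above 0.

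Replicate numbers were shared between genotypes, but embryos of the same number deviated from their group means with correlations of 0.125, 0.176 and -0.0879, so they were not taken as pairs. With the replicate block, 0 genes and 0 Hox genes were called and the Hox median was 3.49. Bahd1 (log2 fold change -8.40, adjusted p 0.0462 in edgeR) had an adjusted p of 0.229 with the block and of 0.0158 to 0.685 with each embryo left out, above the threshold of 0.05 in 5 of these 6 fits and under it without Bahd1-KO replicate 3, with log2 fold changes of -8.78 to -8.01.

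With edgeR's own filter on low counts, 7 Hox genes were tested, all above 0 and none called. Depth limited the Hox genes, since 12 entries had 1 to 9 counts in all and were not tested.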

Other observations

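The 3 nearest tested protein-coding genes on each side of each cluster, 24 in all, were lowest in CPM in Bahd1-KO replicate 3 in 14 cases. They were highest there in 6, near the share of 25.9% of all genes tested. The share of all genes lowest there was not counted, so the 14 cases are a description. Lnpk and Mtx2, which flank Hoxd at 88.9 and 60.7 kb, had 88.5, 65.2 and 28.7 CPM and 87.7, 82.8 and 35.7 CPM in Bahd1-KO replicates 1, 2 and 3. In the Bahd1-WT embryos they had 79.8, 50.8 and 59.4 CPM and 81.7, 56.3 and 71.3 CPM. On this scale of total counts Bahd1-KO replicate 3, which had the highest Hox level, was the lowest for both. Protein-coding genes took 53.5% of its counts, against 97.8 to 98.4% in the other libraries, and CPM does not correct for this. With TMM factors the log2 fold changes of Lnpk and Mtx2 were 0.06 (SE 0.332) and 0.11 (SE 0.278). Beside Hoxb, Ttll6 at 28.9 kb had 2.38 CPM in Bahd1-KO replicate 3 and 0.599 to 0.972 CPM in the other 5 embryos, with a log2 fold change of 1.43 (0.35 without that embryo). Calcoco2 at 82.4 kb had 0.418 CPM there and 0.0368 to 0.081 CPM in the others, with a log2 fold change of 2.46. Skap1, 96.3 kb from Hoxb, and Smug1, 116 kb from Hoxc, had log2 fold changes of -0.05 (SE 0.399) and -0.12 (SE 0.358). Skap2, 150 kb from Hoxa, was at 37.4 CPM in Bahd1-KO replicate 3 and at 7.34 to 9.93 CPM in the other 5 embryos, and Hibadh, 285 kb away on the other side, was at 28.3 to 38.8 CPM in all 6.

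The Evx homeobox genes stand at the ends of Hoxa and Hoxd and mark interneurons of the hindbrain and spinal cord. Evx2, 8.75 kb from Hoxd13, had 327, 117 and 283 counts in the Bahd1-WT embryos and 7, 263 and 9 counts in Bahd1-KO replicates 1, 2 and 3. Evx1, 52.6 kb from Hoxa13, had 31, 19 and 62 counts against 2, 40 and 0. Replicate 3 of Bahd1-KO, highest for 18 tested Hox genes, was thus at or near the lowest for both, and replicate 2 was within the range of Bahd1-WT. The log2 fold change was -1.15 for each (SE 1.19 for Evx2 and 1.28 for Evx1), and neither passed the test of edgeR, with adjusted p-values of 0.751 and 0.765.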
